A study of Rattus norvegicus with 12 samples.

Results

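The 10 core genes of the mammalian circadian clock (Bmal1, Clock, Npas2, Per1, Per2, Per3, Cry1, Cry2, Nr1d1 and Nr1d2) were followed in rat fibroblasts held with or without adhesion. They were represented by 18 probe sets, and they are 10 of the 14217 genes that the arrays measured under a single gene symbol. The genes were chosen by name as the known loop, at a time when their NA16 against A16 values in these same arrays were already known, so those values are given as a description with no test. The cells were F111, an established rat fibroblast line, grown in medium with fetal calf serum. A16 cells had been plated on plastic for 16 h and were attached. NA16 cells had been plated for the same 16 h under conditions that keep them in suspension. The paper reports that most suspended cells had lost viability by then, and that those still alive carried apoptotic proteins and fragmented DNA. Whether dying cells contributed to the differences between the states was not tested. Both states were of the same line and had no other agent or allele that the labels name. Each state had 3 arrays, biological replicate 1, biological replicate 2 and technical replicate 2. Technical replicate 2 was averaged with biological replicate 1, to which the numbering in the labels points, so means and SDs are over n = 2 per state.

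The technical arrays of the states did not lie nearest to the same replicate. In A16 the technical array differed from biological replicate 1 by a root mean square of 0.175 on the log2 scale and from biological replicate 2 by 0.299. In NA16 it differed from biological replicate 1 by 0.269 and from biological replicate 2 by 0.175. Every array is therefore printed for the clock genes. Values are log2 RMA intensities, a brightness whose level cannot be set against that of another probe set as an amount of RNA. Amounts of RNA are therefore not compared between genes, only differences between the states. A gene called dim below is one whose probe set had a low brightness. Both states were sampled at 1 time point, and a shift in the phase of an oscillation and a change in its mean level cannot be told apart from such a sample. In RNA from a whole culture, fewer cells that express a gene and less of its RNA per cell cannot be told apart either.

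In the circadian clock BMAL1 pairs with CLOCK, or with its close relative NPAS2, and the pair binds E-box elements and switches on its own repressors. PER and CRY proteins gather into a complex that holds the pair back until the complex is degraded, while the nuclear receptors REV-ERB-alpha (Nr1d1) and REV-ERB-beta (Nr1d2) compete with ROR receptors at ROR elements and repress Bmal1. Output factors such as DBP and NFIL3 act on D-box elements. Cultured fibroblasts carry this oscillator, and serum or a medium change is known to align the clocks of single cells.

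Proximal promoters of 3 of the genes carried exact copies of these elements, and they are shown because each holds an element of a different arm of the loop. The stretches are the 250 bases before the start of the RefSeq gene in the GRCr8 assembly, 5′ to 3′ on the gene's own strand, with the elements in capitals. The Bmal1 promoter lies at chr1:176766078-176766327 on the plus strand, and its capitals mark a ROR element that begins 16 bases before the start. The Per2 promoter lies at chr9:99496994-99497243 on the minus strand, and its capitals mark a D-box at 192 bases and a variant E-box at 62 bases before the start. The Nr1d1 window is the one at the downstream of its annotated starts, at chr10:84229455-84229704 on the minus strand, and its capitals mark an E-box at 191 bases before the start.
Bmal1: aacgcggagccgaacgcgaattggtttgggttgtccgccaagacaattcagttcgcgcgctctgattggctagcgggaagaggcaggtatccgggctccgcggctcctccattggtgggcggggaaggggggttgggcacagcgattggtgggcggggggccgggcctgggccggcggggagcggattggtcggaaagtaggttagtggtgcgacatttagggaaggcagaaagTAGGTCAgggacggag
Per2: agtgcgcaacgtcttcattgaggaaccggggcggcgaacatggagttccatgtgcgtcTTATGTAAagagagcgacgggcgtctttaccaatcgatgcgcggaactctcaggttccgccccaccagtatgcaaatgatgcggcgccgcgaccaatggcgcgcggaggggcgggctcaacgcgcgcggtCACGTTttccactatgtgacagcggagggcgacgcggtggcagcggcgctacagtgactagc
Nr1d1: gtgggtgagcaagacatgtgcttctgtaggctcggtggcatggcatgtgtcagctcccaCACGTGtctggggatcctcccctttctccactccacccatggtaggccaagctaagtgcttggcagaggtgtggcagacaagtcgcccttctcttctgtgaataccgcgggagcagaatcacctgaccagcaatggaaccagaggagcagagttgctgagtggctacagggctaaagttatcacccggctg

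In all, 9 of the 10 genes had a promoter window, Cry1 being the exception, and they gave 11 windows of 300 bases, 50 of them after the start. Motifs were searched on both strands. The E-box CACGTG was in 1 of the 11 windows, against 6.42% of all 33469 promoter windows in the table. The D-box TTATGTAA was in 1 window, against 0.893%, and the ROR element TNGGTCA in 1, against 11.1%. A full cyclic AMP response element, TGACGTCA, was in 0 windows, against 1.83%. The core bound by hypoxia-inducible factors, ACGTG, which also lies inside the E-box, was in 5 windows, against 19.3%. CACGTT, a variant E-box that was added to the search after the sequences had been read, was in 3 windows, of Per2, Cry2 and the upstream Nr1d1 start, against 4.83%. A match describes the letters in a window, and a window without one says only that those letters are not in it.

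The label of the cells was checked first. Collagen genes Col1a1 and Col1a2, vimentin and fibronectin had A16 means between 13.7 and 14.6, whereas Dcn and Lum, proteoglycans of many fibroblasts, were dim in A16, with arrays between 5.11 and 5.39 and between 5.80 and 6.12. Over all genes 21.9% were higher and 16.9% lower in NA16 at an adjusted p below 0.05, beside which the following counts stand. Of 12 fibroblast markers 5 were higher (Pdgfrb, Lum, Pdgfra, Dcn and Thy1) and 0 lower. The NA16 means of Dcn and Lum were 5.81 and 7.15. Of 6 macrophage and leukocyte markers 2 were higher, Cd68 and Lyz2. The leukocyte antigen Ptprc stood at 5.82 in A16 and 5.68 in NA16 and the macrophage antigen Adgre1 at 4.71 and 4.73, both dim. Epithelial markers gave 2 of 6 higher, Epcam and Krt8. Of these Krt8 was not dim, with 10.12 in A16 and 11.38 in NA16, whereas Epcam stood at 5.95 and 6.49 and Cdh1 at 5.21 and 5.30. The other keratins of the list, Krt18, Krt5 and Krt14, had differences of -0.24, -0.22 and -0.02 and were not called. Endothelial markers gave 1 of 3 higher (Pecam1). On the control probe sets for beta-actin the difference of NA16 from A16 was -0.72 at the 3′ end, -1.02 in the middle and -1.21 at the 5′ end, whereas for GAPDH it was 0.24, 0.28 and 0.19. The part of these in the results was not tested. Median RMA intensities of the arrays lay between 152.5 and 157.9.

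The activating arm showed small differences that did not run one way: Bmal1 and Clock were lower in suspension and Npas2 was higher. Bmal1, the partner common to every activating pair, read 9.00, 8.99 and 8.98 in A16 and 8.51, 8.66 and 8.74 in NA16, in the order biological replicate 1, biological replicate 2 and technical replicate 2, which is kept below. All NA16 arrays lay under all A16 arrays, and the difference was -0.35 (standard error 0.10), or 1.27-fold.

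Clock had 4 probe sets. The one that stood for the gene, 1390199_at, read 10.08, 10.07 and 10.34 in A16 and 10.04, 9.76 and 9.94 in NA16, a difference of -0.27 (standard error 0.13), which was -0.15 without replicate 2 of NA16. The states were separated there by 0.03 only, between biological replicate 2 of A16 and biological replicate 1 of NA16. On 1380098_at the difference was -0.43 and the arrays did not overlap, while on 1369168_a_at and 1389456_at it was -0.17 and -0.05 and they did. Clock was thus lower in the mean on each of its 4 probe sets, and its arrays overlapped on 2 of them. In PLIER, a second algorithm, they overlapped on 1380098_at and 1389456_at and not on the others. In the fit over all probe sets 1380098_at alone of the Clock probe sets was past the threshold, so the call of Clock depended on the probe set.

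Npas2, which can take the place of CLOCK beside BMAL1, read 8.45, 8.50 and 8.72 in A16 and 8.95, 9.08 and 9.12 in NA16. It was higher by 0.51 (standard error 0.10), or 1.43-fold, and its arrays did not overlap.

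Among the PER genes, which carry the timing of the repressor complex, Per1 was more than 2-fold higher in NA16. For Per2 and Per3 the size depended on the probe set. Per1 read 8.48, 8.46 and 8.71 in A16 and 9.45, 10.09 and 9.90 in NA16, a difference of 1.36 (standard error 0.16), or 2.56-fold. The lowest NA16 array of Per1 was biological replicate 1, still above every A16 array.

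Per2 was read by probe sets that gave different sizes in the same direction. By the mean of the 6 arrays 1378560_at stood for the gene, but this was close to a tie, with 8.77 on each probe set to 2 decimals, and by the means of the replicates, 8.73 against 8.74, 1368303_at would have stood for it. On 1378560_at the arrays read 8.72, 8.50 and 8.68 in A16 and 9.03, 8.73 and 8.94 in NA16, a difference of 0.26 (standard error 0.14). Those states came within 0.02 of each other, biological replicate 1 of A16 against biological replicate 2 of NA16. On the other, 1368303_at, they read 8.04, 8.01 and 8.00 in A16 and 9.74, 9.33 and 9.48 in NA16, a difference of 1.46 (standard error 0.13), or 2.75-fold. In the fit over all probe sets 1378560_at was not past the threshold and 1368303_at was, so the choice of probe set decided both the size and the call of Per2. Which transcripts each of them reads was not determined here.

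Per3, whose loss is known to affect the central clock less than that of the other PER genes, was higher on both of its probe sets. On 1378745_at it read 6.67, 6.99 and 7.04 in A16 and 7.85, 8.26 and 8.18 in NA16, a difference of 1.21 (standard error 0.13), or 2.32-fold. On 1388239_at the arrays ran from 6.22 to 6.37 in A16 and from 6.58 to 6.74 in NA16, a difference of 0.40. Neither probe set overlapped between the states.

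The cryptochromes, the other components of the repressor complex, differed in opposite directions. Cry1 read 9.72, 9.43 and 9.80 in A16 and 9.30, 8.69 and 8.96 in NA16, a difference of -0.69 (standard error 0.19), or 1.61-fold lower. Cry2 read 8.39, 8.57 and 8.30 in A16 and 9.47, 9.95 and 9.85 in NA16 on 1372548_at, a difference of 1.35 (standard error 0.15), or 2.55-fold higher. In biological replicate 2 of either state Cry1 was lowest and Cry2 highest, so the spread between replicates ran opposite ways in the pair as well. The second Cry2 probe set, 1369446_at, was higher by 0.91 and did not overlap between the states.

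The REV-ERB genes had the largest differences of the 10 in RMA, although in PLIER Per1, Per3 and Cry2 exceeded Nr1d2, which was at 1.61. Nr1d1 read 8.50, 9.38 and 8.62 in A16 and 10.89, 11.48 and 11.23 in NA16, a difference of 2.30 (standard error 0.29), or 4.93-fold. In A16 biological replicate 2 lay 0.76 above the next array, and the lowest NA16 array was still above all of them. In the RefSeq table the range of Nr1d1 overlaps that of Thra, a thyroid hormone receptor gene, and whether the probes lie in the shared stretch was not checked.

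Nr1d2 read 8.92, 9.20 and 8.99 in A16 and 10.78, 10.49 and 10.74 in NA16 on 1390430_at, a difference of 1.55 (standard error 0.15), or 2.92-fold. On 1370541_at the difference was 1.35. On 1370540_at it was 0.99, and the states were 0.11 apart there, between biological replicate 2 of A16 and biological replicate 1 of NA16.

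**Figure D1:**
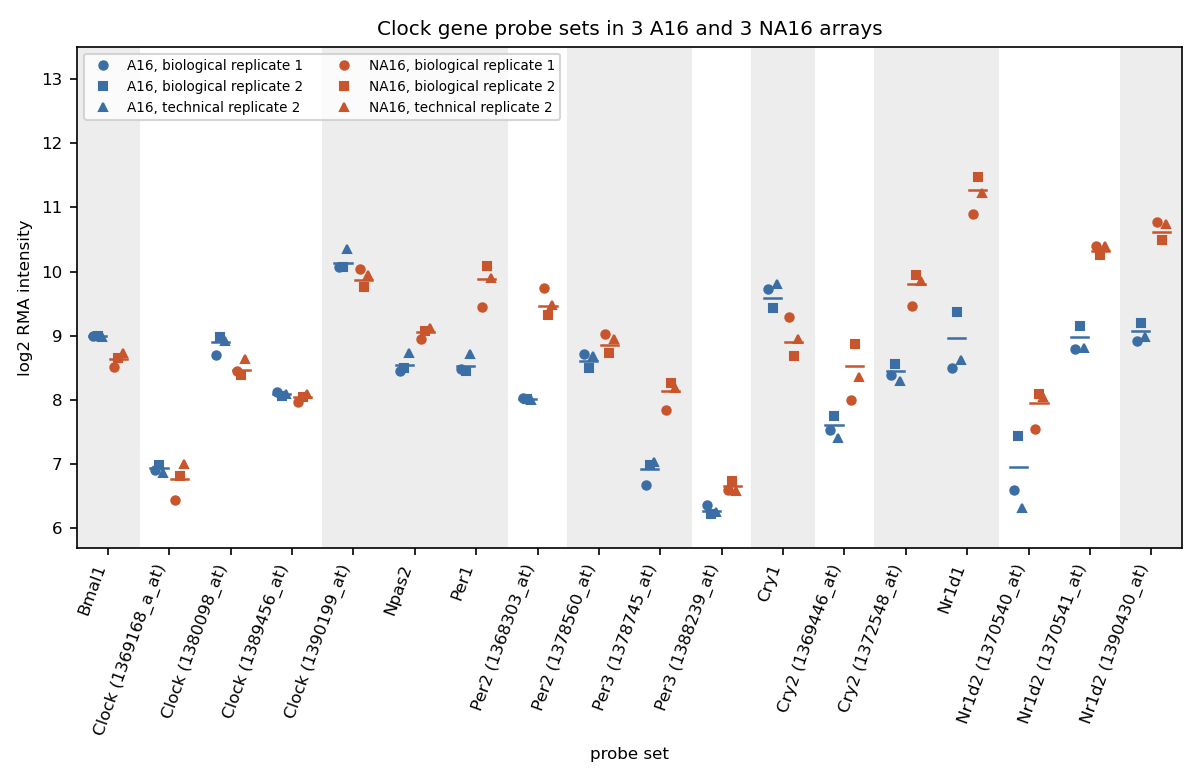
Log2 RMA intensity of each of the 18 clock probe sets (x axis) in every array (points, shaped by array), blue for A16 and orange for NA16, with lines at the mean of n = 2 replicates per state and grey bands on the probe set that stands for its gene. The separation is widest for Nr1d1, whose A16 arrays lie between 8.50 and 9.38 and whose NA16 arrays lie between 10.89 and 11.48, and the level of one probe set cannot be read against that of another.

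In the fit over all genes 8 of the 10 were past the threshold, an adjusted p below 0.05, 6 higher and 2 lower. Over all 14217 genes 38.9% were past it, 21.9% higher and 16.9% lower. In all 10 genes the arrays of the states did not overlap, which held for 51.7% of all genes. Among probe sets 12 of 18 were past the threshold, against 27.5% of 31042, and 16 of 18 did not overlap, against 44.3%. The genes had been selected on this contrast, so nothing is read from these counts, of which the 8 became 5 without replicate 2 of NA16. Clock and Per2 were the genes not past the threshold, although a probe set of each, 1380098_at and 1368303_at, was past it in the fit over probe sets. Bmal1 was past it in the fit over genes, but its probe set was not past it in the fit over probe sets. Without the technical arrays 0 clock genes were called lower, so the calls of Bmal1 and Cry1 were lost.

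By role, the median difference was -0.27 over the 3 activators, 1.21 over the 5 PER and CRY genes and 1.92 over the 2 REV-ERB genes, with 6 of the 7 repressors having a positive difference, Per2 among them without being past the threshold. The median over all 14217 genes was 0.01 and the SD 0.70. The median of the repressors exceeded that of the activators by 1.62, and the value without the technical arrays was 1.41. Ordered by their difference among all 14217 genes from the highest in NA16 down, Nr1d1 came at place 115, Nr1d2 at 387, Per1 at 566, Cry2 at 576, Per3 at 736, Npas2 at 2624 and Per2 at 4040. Clock, Bmal1 and Cry1 came at 11044, 11478 and 12653.

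In a ratio of genes within an array a factor common to the whole array cancels. Other steps of the processing do not cancel, and the ratio of Per1 to Bmal1 was higher in NA16 by 1.70 in RMA and by 2.52 in PLIER. The ratios that follow are from RMA. Relative to its A16 mean, the ratio of Nr1d1 to Bmal1 was higher in NA16 by 2.65 on the log2 scale, or 6.27-fold. That of Cry2 to Cry1 was higher by 2.04, or 4.10-fold, and that of Npas2 to Clock by 0.78, or 1.72-fold. None of these overlapped between the states. Npas2 to Bmal1 varied least between the replicates of NA16, with 0.88, 0.87 and 0.83 in its arrays. By contrast the ratio of Cry1 to Bmal1 was lower by 0.34 with arrays that overlapped, and that of Nr1d1 to Nr1d2 was higher by 0.75 with arrays that overlapped.

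**Figure D2:**
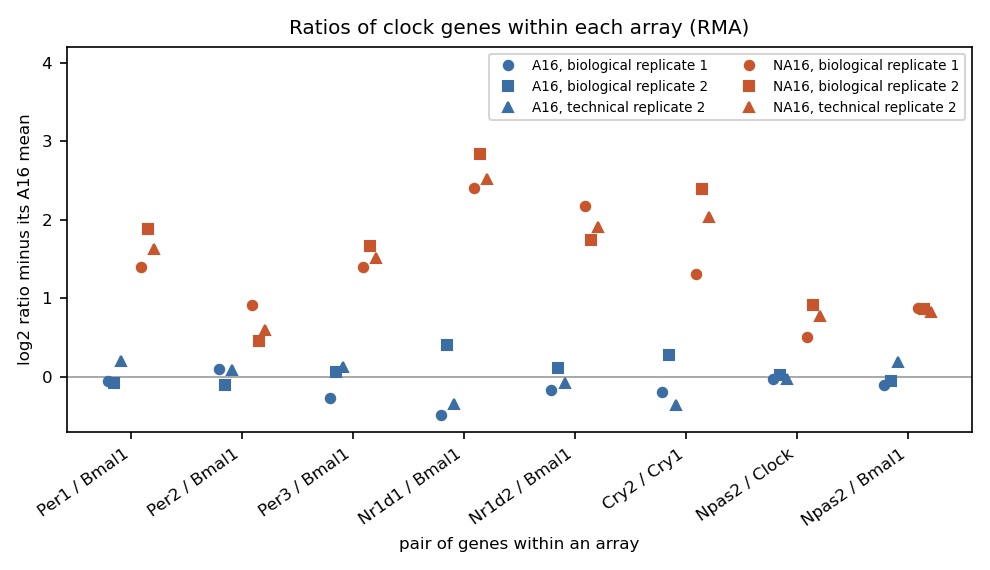
Log2 ratio of pairs of clock genes within each array, minus the mean of that ratio in A16 (y axis), for 8 pairs (x axis), blue for A16 and orange for NA16 with a symbol for each array. In every pair shown the NA16 arrays lie above the A16 arrays, from 0.46 for Per2 to Bmal1 in biological replicate 2 to 2.84 for Nr1d1 to Bmal1 in the same array.

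PLIER, the second algorithm run on the same arrays, gave the same sign as RMA on all 18 probe sets, 12 higher and 6 lower, and 15 of the 18 differences were larger in size. Per1 moved from 1.36 to 2.09, or 4.24-fold, Per3 on 1378745_at from 1.21 to 1.95, and Per3 on 1388239_at from 0.40 to 1.28. Per2 on 1378560_at moved from 0.26 to 0.83, and on 1368303_at it was 2.83-fold higher in PLIER against 2.75-fold in RMA. Nr1d1 was at 2.39 and Cry1 at -0.66, close to their RMA values. In PLIER 15 of the 18 probe sets did not overlap between the states.

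**Figure D3:**
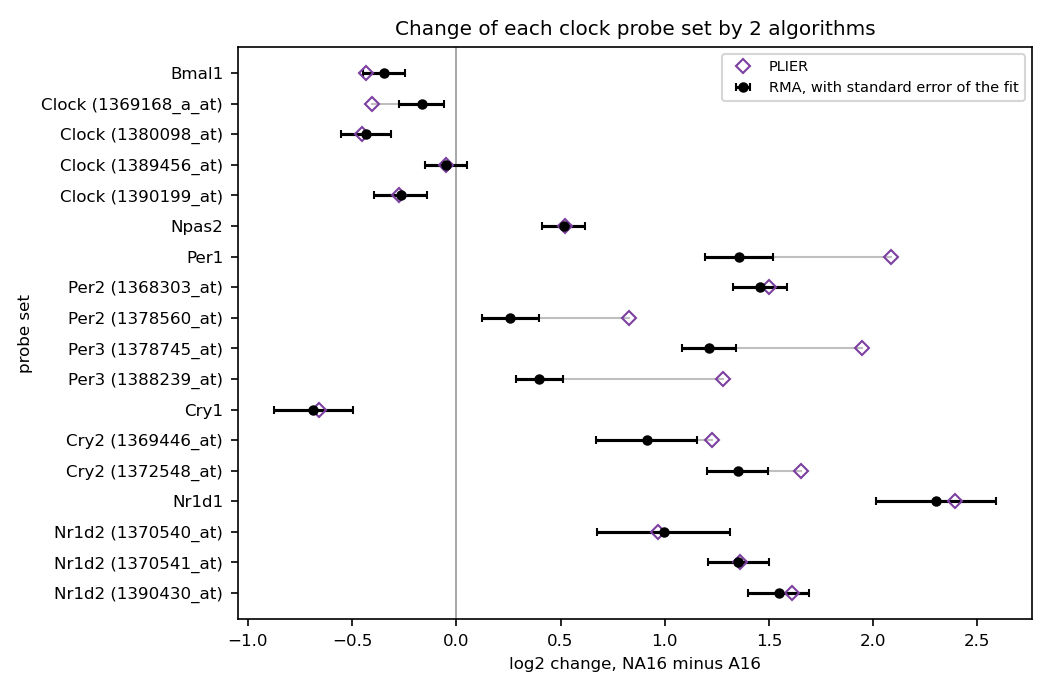
Log2 difference of NA16 from A16 (x axis) for the 18 clock probe sets (y axis), black points for RMA with the standard error of the fit (n = 2 per state) and open diamonds for PLIER. Every pair of symbols lies on the same side of 0, and the widest gaps between algorithms are those of the Per3 probe sets (0.40 and 1.28 on 1388239_at, 1.21 and 1.95 on 1378745_at), followed by Per1 (1.36 and 2.09).

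**Figure D4:**
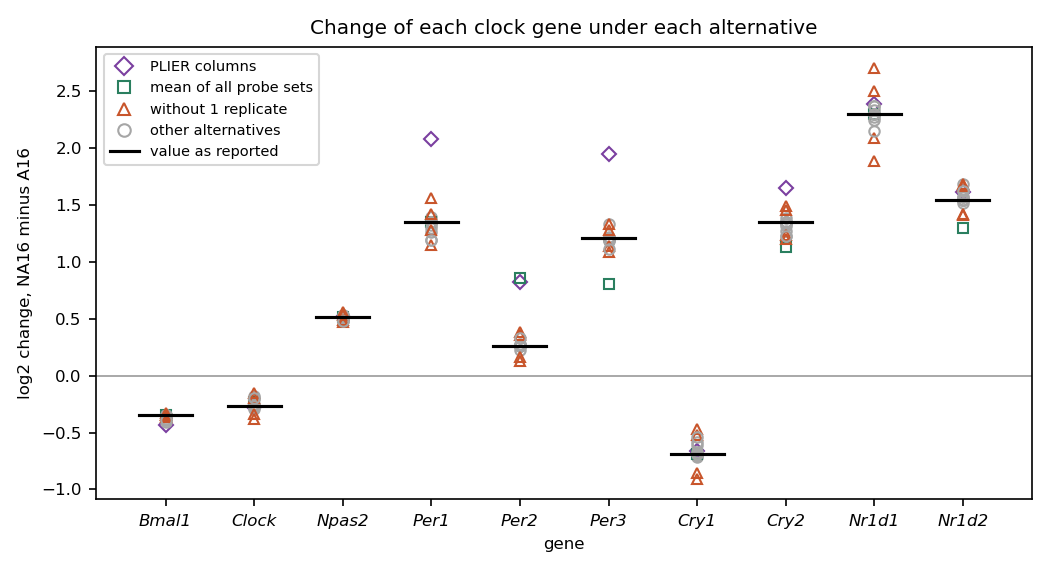
Log2 difference of each clock gene (y axis, by gene on the x axis) as reported (black line) and under 16 other ways of processing the arrays (symbols). No gene crosses 0, and Per2 ranges widest for its size, from 0.13 to 0.86.

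Factors next to the core loop, which were tested in the fit over all genes, moved mostly upward in suspension. Of the 10 listed output and loop factors 8 were analysed here, of which 7 rose, 0 fell and 1 did not pass, against 21.9% of all genes that rose, with a median of 1.46. This list was drawn up with earlier results of these data known, so its direction is not independent evidence. Dbp, the D-box activator driven by the core pair, read 8.17, 8.28 and 8.37 in A16 and 11.63, 11.90 and 11.74 in NA16, 11.5-fold higher (adjusted p = 2.3e-05). Bhlhe40 and Bhlhe41, repressors that compete for E-boxes, rose 10.1-fold (adjusted p = 5.5e-05) and 6.08-fold (adjusted p = 5.1e-05). The D-box repressor Nfil3 rose 2.70-fold and the D-box activator Tef 2.50-fold. Hlf, the third of the PAR bZIP activators, had a difference of 0.01 (adjusted p = 0.97) and its arrays overlapped.

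The ROR receptors, which oppose the REV-ERBs at ROR elements, rose on the probe sets that stood for them. Rora read 8.88, 9.41 and 8.68 in A16 and 10.57, 10.65 and 10.49 in NA16, 2.82-fold higher (adjusted p = 0.0014), and Rorb rose 1.73-fold (adjusted p = 0.0016) from a mean of 6.31. A second probe set of Rora gave -0.15 and a second of Rorb 0.00, and with all probe sets of a gene averaged the differences were 0.67 and 0.40.

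Among the listed kinases and degradation factors of clock proteins, as many rose as fell. Of 17 measured of 19 listed 3 rose, 3 fell and 11 did not pass, with a median of -0.12, and the share called, 35.3%, was close to the 38.9% of all genes. The kinases of PER, Csnk1d and Csnk1e, had differences of -0.20 (adjusted p = 0.55) and 0.31 (adjusted p = 0.083). Over their probe sets the differences ran from -0.80 to 0.24 for Csnk1d and from -0.01 to 0.38 for Csnk1e. Usp7, a deubiquitinase, fell by 1.17 (adjusted p = 0.01) and Huwe1, a large ubiquitin ligase, by 0.64 (adjusted p = 0.0058). Fbxw11, an F-box protein that recognises phosphorylated PER, fell by 0.55 (adjusted p = 0.0077). Btrc, of the same family, had a difference of 0.50 (adjusted p = 0.099) and did not pass. Over the Btrc probe sets the differences ran from -0.64 to 0.50. Usp7 fell by 0.76 without biological replicate 2 of A16, and Fbxw11 did not pass without biological replicate 2 of NA16 (adjusted p up to 0.075 over its alternatives). The calls of the kinase subunit Csnk2a2 at 0.62 (lost without replicate 2 of either state), the ubiquitin ligase Siah2 at 0.53 (lost without replicate 1 of either state) and the kinase Csnk1a1 at 0.39 (lost without any 1 replicate) had adjusted p up to 0.18, 0.19 and 0.41 over their alternatives.

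Nuclear proteins that join the clock complexes included the largest falls among the partners. Of 20 measured of 25 listed 3 rose, 8 fell and 9 did not pass, with a median of -0.12, and 55% were called against 38.9% of all genes. Sfpq, a partner of NONO in the PER complex, read 11.97, 12.21 and 11.78 in A16 and 8.84, 9.03 and 8.76 in NA16, 8.74-fold lower (adjusted p = 5.1e-05). Dhx9, an RNA helicase found with PER, fell 5.77-fold (adjusted p = 6.9e-05), and Timeless, known also for its role at replication forks, fell 4.97-fold (adjusted p = 0.0027), from 10.27, 11.21 and 10.09 in A16 to 8.04, 8.78 and 7.93 in NA16. Smaller falls were those of the deacetylases Hdac2 by 0.82 and Hdac1 by 0.65 and of Wdr5, a methyltransferase subunit, by 0.71. Nampt, which makes the NAD precursor used by sirtuins and is itself a clock output, rose 4.46-fold (adjusted p = 6.1e-05), with 10.76, 10.79 and 10.87 in A16 and 12.86, 13.04 and 12.91 in NA16. The acetyltransferase Kat2b rose by 0.96 (adjusted p = 0.0023).

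Among factors that carry signals to the clock 2 of 9 measured rose, 2 fell and 5 did not pass, with a median of 0.01. The share called, 44.4%, was close to the 38.9% of all genes. The glucocorticoid receptor Nr3c1 rose by 0.90 (adjusted p = 8.9e-04), though by 0.28 on its other probe set. Hsf1, the heat shock factor, fell by 1.01 (adjusted p = 0.019) and Mrtfa, the actin-sensing cofactor of SRF, by 0.78 (adjusted p = 0.017). Neither passed without replicate 2 of A16, nor did Mrtfa without replicate 1 of either state, and over the alternatives their adjusted p reached 0.29 and 0.25. Crtc3, a CREB coactivator, at 0.47, passed in 5 of 16 alternatives, and not without replicate 1 of A16 or replicate 2 of NA16 (adjusted p up to 0.41).

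Relatives of BMAL1 and CLOCK with the same bHLH and PAS domains gave 3 of 12 that rose and 0 that fell, with a median of -0.06. The 25% called, all of which rose, stand beside 21.9% of all genes that rose and 38.9% called in either direction. Sim2 rose by 0.91 (adjusted p = 8.1e-04), Ahrr, the repressor of the aryl hydrocarbon receptor, by 0.71 (adjusted p = 0.0028) and Hif1a, the oxygen-regulated subunit, by 0.54 (adjusted p = 0.0073). For Hif1a in NA16 the paper lists no change by microarray at its fold cutoff and a lower value than A16 by quantitative PCR. It reports the protein as highest in NA16. Bmal2, the nearest relative of Bmal1, stood at 5.97 in A16 and 5.90 in NA16, a dim signal, with arrays that overlapped.

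Of 6 cell cycle genes named as outputs of the clock 4 fell and 0 rose, with a median of -0.44, against 16.9% of all genes that fell. Ccnd1, the G1 cyclin, fell by 1.02 (adjusted p = 0.0055) and Myc by 0.56 (adjusted p = 0.0069). Myc did not pass without biological replicate 2 of NA16 (adjusted p up to 0.071 over its alternatives). The calls of Wee1, the kinase that holds back mitosis, and Cdkn2d, both at about -0.44, were lost without replicate 1 of A16 or replicate 2 of NA16, and that of Wee1 also without replicate 1 of NA16, with adjusted p up to 0.20 and 0.30 over their alternatives. Over the lists together 18 of the 72 partners rose and 17 fell, 48.6% in all against 38.9% of all genes, with a median of -0.09, and without replicate 2 of NA16 the number that fell was 11.

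**Figure D5:**
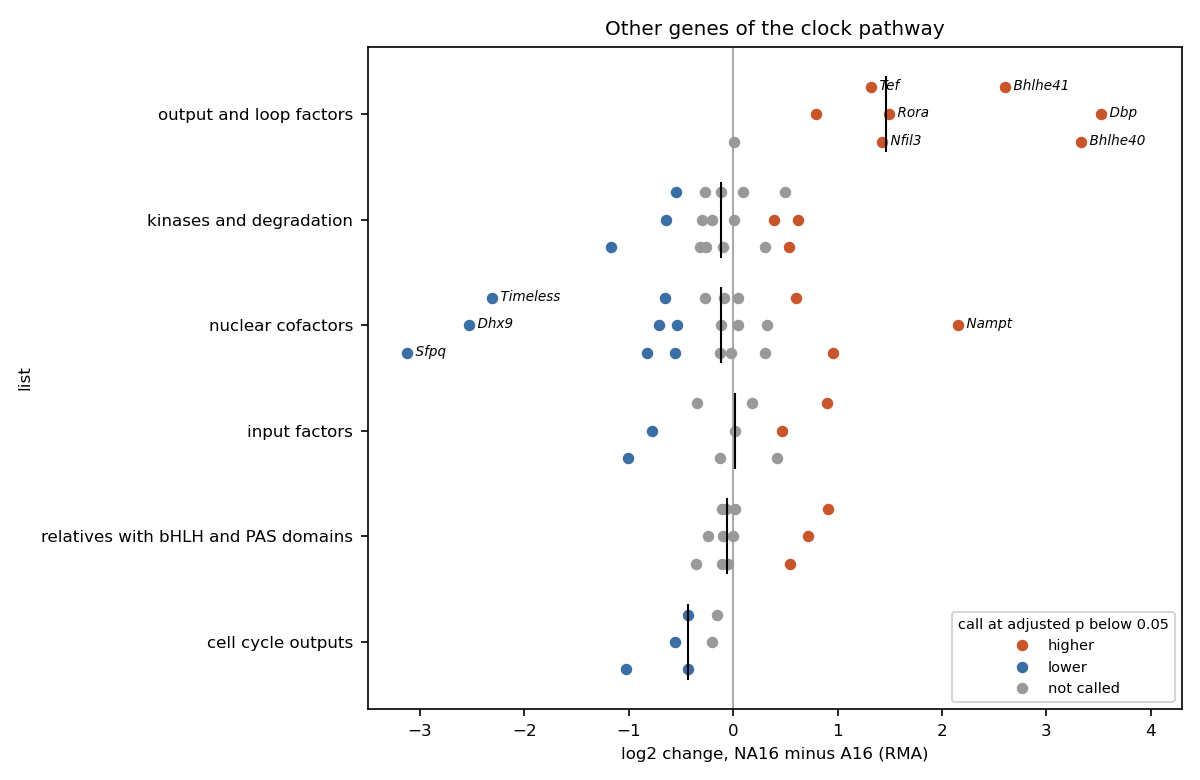
Log2 difference of NA16 from A16 (x axis) for the 72 measured partner genes, 1 point per gene in 6 lists (y axis), coloured by whether limma called it, with a black line at the median of each list and names on the largest. The output and loop factors lie to the right with a median of 1.46, and the other lists have medians between -0.44 and 0.01.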

How the data were processed

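Affymetrix rat arrays were scanned with the GeneChip Operating Software, and the authors summarised them with RMA and with PLIER in Avadis. The deposited values were normalized intensities, not on a log scale, with a column for each array and algorithm, so 12 columns came from 6 arrays. The lowest RMA intensities lay between 16.1 and 17.6 and the lowest PLIER intensity was 16.0, so a constant may have been added, which would understate differences of dim genes. Log2 was taken here. Of 31042 probe sets that were no controls 20826 had 1 symbol in the platform annotation. Each of 14217 genes was represented by its probe set of highest mean log2 RMA intensity. The number of arrays limits the precision.

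The states were compared with limma 3.58.1 (lmFit and eBayes, R 4.3.3) and Benjamini-Hochberg adjustment at 0.05, over genes and again over probe sets, with 2 residual and 4.78 prior degrees of freedom. The labels call the replicates biological, but no source used here says that they were separate cultures, so part of the spread that p-values measure may be technical. The genes and lists were chosen with earlier results of these data known. Every clock probe set is given, and of each list up to 8 called genes by size, besides uncalled members that complete a family. Alternatives left out each replicate or the technical arrays, assigned these differently, and changed the algorithm, scaling, filter, probe set rule and test. Promoters came from RefSeq (GRCr8).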

Additional observations from a re-analysis of the deposited data

How the results depend on the processing

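No clock gene and no partner named with a call changed direction under any of 16 alternatives. A plain t-test per gene with equal variances called 20 genes after Benjamini-Hochberg adjustment (4643 at an unadjusted p below 0.05) where limma called 5524. It called 0 probe sets (8023 unadjusted) against 8527, 0 of the clock genes (7 unadjusted) against 8, and 0 of 72 partners in each direction (26 unadjusted) against 18 and 17. With an unadjusted p below 0.05 and at least 2-fold it gave 1809 genes and 5 clock genes. With 1 replicate left out the lone sample was assumed to vary like the other state. Genes then numbered 4460 to 4647, probe sets 5874 to 7647, clock genes 5 to 7 (5 without NA16 replicate 2), partners that rose 15 to 18 and that fell 11 to 15 (11 without NA16 replicate 2). The excess of repressors over activators, 1.62, ran from 1.30 to 1.74 on leaving out a replicate. It was 1.93 in PLIER, 1.36 with all probe sets of a gene averaged, 1.41 without the technical arrays, 1.39 with them averaged into biological replicate 2, and 1.39 when only that of NA16 was, an alternative chosen after seeing the data. Fewer arrays entered where replicates or technical arrays were left out, the others changed the algorithm, the probe set rule or the assignment of the same 6 arrays, and the cause was not tested. Without the technical arrays 6 clock genes, all higher, 14 partners that rose and 12 that fell were called. Replicate numbers are shared by the states, and deviations of same-numbered replicates correlated at 0.535, which 2 pairs cannot establish as pairing. With a replicate block 7019 genes, 11873 probe sets, 10 clock genes and 23 partners in each direction were called.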
